A study of Homo sapiens with 2 samples.

Results

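Zinc finger genes named by the prefixes Zfp, Zbtb, Zscan, Zkscan, Zc3h, Zcchc or Zmym were examined in RNA-seq of HepG2 cells, a human hepatocellular carcinoma line. The members are the protein-coding genes of the deposited count table whose symbol starts with 1 of these 7 prefixes, and 68 of 3764 listed genes met that rule. By prefix there were 40 Zfp, 15 Zbtb, 6 Zc3h, 4 Zcchc and 3 Zmym genes, and no Zscan or Zkscan gene was listed.

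The vector library came from HepG2 cells that the labels give as wild type, and the knockout library from HepG2 cells in which CRISPR-Cas9 had knocked out SCRN1 (secernin 1), both with no treatment. The sources used here do not give whether the knockout line was 1 clone or a pool. There was 1 library per group, so differences could not be checked against replicates. Intervals are exact, at 95%, and allow for counting error alone. The table lists mouse genes, with mouse Ensembl identifiers, symbols and positions, whereas the labels give human cells and the submitters' processing notes the human build GRCh38. Each count below is of reads the authors assigned to a mouse gene.

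Zinc finger domains are small folds held by a zinc ion. Most Zfp and Zbtb proteins carry C2H2 fingers that read DNA. The BTB domain of Zbtb proteins pairs the proteins and recruits corepressors, and a KRAB domain, where present, recruits the TRIM28 corepressor. CCCH fingers (Zc3h and the Zfp36 family) and CCHC knuckles (Zcchc) mostly bind RNA, and MYM fingers (Zmym) mediate protein contacts in corepressor complexes such as LSD1-CoREST.

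The human promoters shown are those matched to the 4 members that the rule given below called higher or lower. They are RefSeq sequences on GRCh38.p14, from 250 bases before to 50 after a transcription start, 5′ to 3′ on the gene's strand. Of the 68 members, 32 matched a human gene by the same symbol, 10 by a synonym and 26 by the same number with ZNF for ZFP, which is not a formal ortholog table, and 56 had a promoter entry. Capitals mark the GC box GGGCGG and the box GGGGAGGGG, which human ZNF281 is known to bind, on either strand. ZBTB26 has a second annotated start whose window overlaps the one shown.
ZBTB26, higher in the knockout library, chr9:122931463-122931762, minus strand: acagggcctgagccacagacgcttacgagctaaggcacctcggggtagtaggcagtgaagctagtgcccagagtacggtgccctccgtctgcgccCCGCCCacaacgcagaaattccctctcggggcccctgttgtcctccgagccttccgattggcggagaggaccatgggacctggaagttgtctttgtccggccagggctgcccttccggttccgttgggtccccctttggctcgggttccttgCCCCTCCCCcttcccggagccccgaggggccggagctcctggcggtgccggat
ZNF281, higher in the knockout library, chr1:200409987-200410286, minus strand: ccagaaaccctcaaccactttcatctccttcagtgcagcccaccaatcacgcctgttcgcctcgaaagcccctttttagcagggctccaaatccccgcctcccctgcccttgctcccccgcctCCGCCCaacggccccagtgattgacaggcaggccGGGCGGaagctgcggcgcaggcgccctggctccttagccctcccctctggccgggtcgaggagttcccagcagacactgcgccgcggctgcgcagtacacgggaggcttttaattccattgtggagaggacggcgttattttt
ZC3H7B, lower in the knockout library, chr22:41301275-41301574, plus strand: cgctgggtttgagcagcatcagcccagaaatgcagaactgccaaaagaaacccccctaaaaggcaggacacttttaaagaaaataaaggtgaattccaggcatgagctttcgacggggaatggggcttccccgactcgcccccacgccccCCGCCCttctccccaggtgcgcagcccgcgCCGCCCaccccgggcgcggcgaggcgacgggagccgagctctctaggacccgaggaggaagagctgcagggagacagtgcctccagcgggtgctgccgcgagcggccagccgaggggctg
ZBTB44, lower in the knockout library, chr11:130314868-130315167, minus strand: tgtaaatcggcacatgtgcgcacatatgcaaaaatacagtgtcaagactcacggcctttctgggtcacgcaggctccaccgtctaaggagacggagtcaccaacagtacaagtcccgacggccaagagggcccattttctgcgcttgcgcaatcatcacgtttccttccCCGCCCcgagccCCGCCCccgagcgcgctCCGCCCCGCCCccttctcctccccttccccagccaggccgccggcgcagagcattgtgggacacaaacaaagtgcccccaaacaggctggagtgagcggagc
The GC box occurred in all 4 windows, with 1 match in ZBTB26, 2 in ZNF281, 2 in ZC3H7B and 4 in ZBTB44, a box held by 59.8% of the promoters matched to members, 56.3% of promoters of protein-coding genes and 45.0% of all 35114 promoters of this length. The last pair of matches in ZBTB44 shares a base. The GGGGAGGGG box occurred once, in the ZBTB26 window, and is held by 20.6% of the promoters matched to members, 9.56% of those of protein-coding genes and 7.81% of all. The site TCCTGCNA, bound by human ZBTB33 (Kaiso), had no match in these windows, and 4.69% of all promoters hold it. G and C made up 62.0% of the ZBTB44 window to 66.3% of the ZBTB26 window, beside medians of 64.7% for the promoters matched to members, 62.3% for those of protein-coding genes and 58.7% for all.

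Counts summed to 178421 for the vector and 163644 for the knockout library. Counts were scaled with TMM (trimmed mean of M-values) factors. The median gene had 11 counts over both libraries, and the median zinc finger member had 15.5. The knocked-out gene, as mouse Scrn1, was not among the genes in the table. Of 16 hepatocyte and HepG2 markers, 1 was listed (Krt8, 0 and 2 counts), so the labelled cell type could not be checked. Of 11 mesenchymal markers 7 were listed, with summed counts of 111 and 71. Among them Twist2 (33 and 4 counts) was called lower, and Fn1 (0 and 7) and Twist1 (0 and 4) had counts in the knockout library alone. Of 7 leukocyte markers 1 was listed (Lyz2, 21 and 3 counts, also called lower), and of 4 endothelial markers 0. Their part in the results was not tested.

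The question was which zinc finger genes differed between the knockout and the vector library. Together the 68 genes held 1791 vector and 1661 knockout counts, or 1.004% and 1.015% of each. Their pooled ratio of knockout to vector was 1.03 (0.959 to 1.10), beside 1.01 (1.001 to 1.015) for the 2924 other protein-coding genes. As a set, the zinc finger genes took a similar share of both libraries, and the interval of their pooled TMM-scaled ratio included 1. In bulk RNA, fewer cells with a transcript and less of it per cell cannot be told apart. With median-of-ratios size factors, which left the counts unscaled and lowered every log2 ratio by 0.15, the pooled ratio was 0.927 (0.867 to 0.992). That shift was the same for all genes, and the median log2 ratio over all genes with at least 20 counts moved from 0.03 to -0.12.

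A gene with at least 20 counts over both libraries was called higher or lower where its ratio reached 2 or fell to 0.5 or below with an interval that left out 1. Of the 68 members 30 had that many counts. Zbtb26 and Zfp281 were higher in the knockout library, Zc3h7b and Zbtb44 were lower, and 26 were not called. The 2 higher genes were 6.67% of the 30, where 3.34% of all 1588 compared genes were called higher, and the 2 lower genes were also 6.67%, where 3.90% were called lower. A single call fewer in either direction would give 3.33%, so with at least 20 counts these numbers lie within 1 gene of the background. Among the 20 members with at least 50 counts the same 4 genes were called, 10.0% in each direction. Over all 1019 genes with that many counts, 1.86% were called higher and 2.26% lower. Each of the members' shares is 2 genes. Zbtb44, with 50 counts, and Zc3h7b, with 53, lay at or just above that cut, so the lower share depends on where it falls. The median log2 ratio over the 30 members was -0.03, beside 0.03 over all compared genes, and 21 of the 30 (70.0%) lay within 1.5-fold of equality, beside 75.8%.

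**Figure D1:**
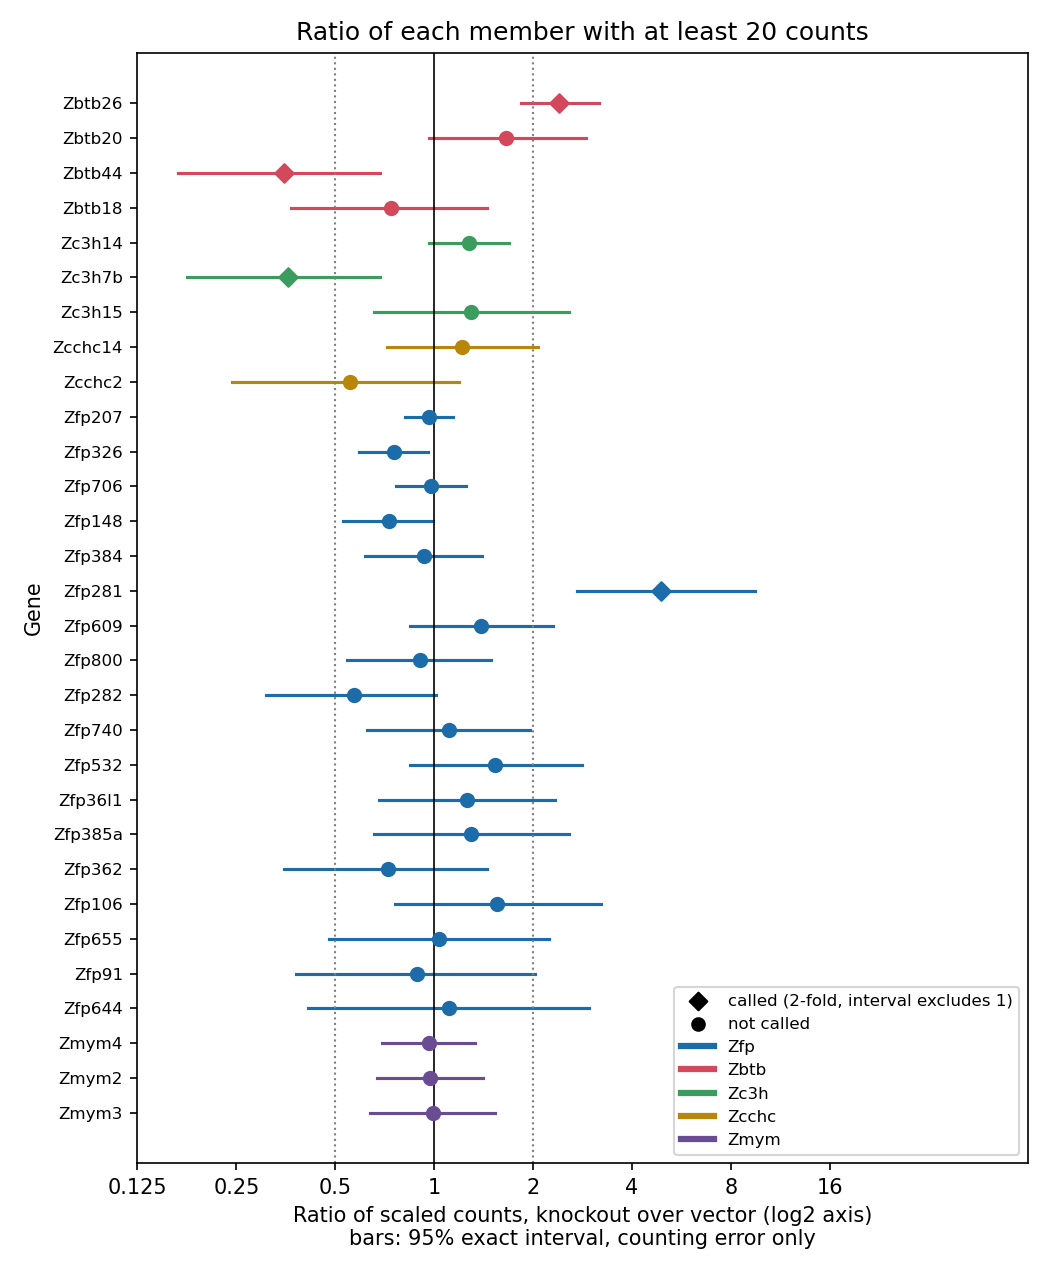
Ratio of TMM-scaled counts, knockout over vector, for the 30 zinc finger genes with at least 20 counts, on a log2 axis. Points are ratios, bars are 95% exact intervals for counting error in 1 library per group, colours are name prefixes, diamonds mark the 4 called genes and dotted lines mark ratios of 0.5 and 2. Zfp281 at 4.90 and Zbtb26 at 2.41 lie right of the upper line, and Zc3h7b at 0.360 and Zbtb44 at 0.349 lie left of the lower line.

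Zfp281 encodes a C2H2 repressor and activator known for its part in restraining pluripotency genes in mouse embryonic stem cells. It had 14 vector and 62 knockout counts, a ratio of 4.90 (2.71 to 9.48). In the deposited FPKM, which corrects for gene length, its level was 8.04 and 38.8. This was the largest ratio of the 30 zinc finger genes. Of the 449 genes with a total count within 1.5-fold of its own, 4 (0.891%) had a log2 ratio at least as high. Called members were picked by this same ratio, so this share, like those given below for the other called members, is a description. Zfp281 (ENSMUSG00000041483) lies on mouse chromosome 1 from 136624901 to 136630053, in a build that is not given, and overlaps no other listed gene.

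Zbtb26 encodes a BTB zinc finger protein whose function is little described. It had 80 vector and 174 knockout counts, a ratio of 2.41 (1.84 to 3.18), and 37.3 and 88.5 FPKM. The interval started below 2, so a difference under 2-fold lay within counting error. With 254 counts Zbtb26 was the most deeply counted of the 4 called members, and 1 of the 215 genes of like depth (0.465%) had a log2 ratio at least as high. Zbtb26 (ENSMUSG00000050714) lies on mouse chromosome 2 from 37432168 to 37443135, within the span of Zbtb6, another BTB zinc finger gene. Zbtb6 had 1 count in each library, and both genes together had a ratio of 2.39 (1.83 to 3.15).

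Zc3h7b encodes a CCCH protein known as RoXaN in human cells, where it was found as a partner of a rotavirus protein. It had 40 vector and 13 knockout counts, a 2.78-fold lower scaled count (1.46 to 5.67), with 15.4 and 5.46 FPKM. Zbtb44, a BTB zinc finger gene, had 38 and 12 counts, a 2.86-fold lower scaled count (1.46 to 6.01), with 13.8 and 4.76 FPKM. The lower bounds of both intervals were below 2-fold, so a difference under 2-fold lay within counting error. Of genes within 1.5-fold of their depth, 13 of 497 (2.62%) were at least as low as Zc3h7b and 12 of 504 (2.38%) at least as low as Zbtb44. Zc3h7b (ENSMUSG00000022390) lies on mouse chromosome 15 from 81745057 to 81796260 and Zbtb44 (ENSMUSG00000047412) on chromosome 9 from 31030644 to 31075885, with no overlap with a listed gene.

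**Figure D2:**
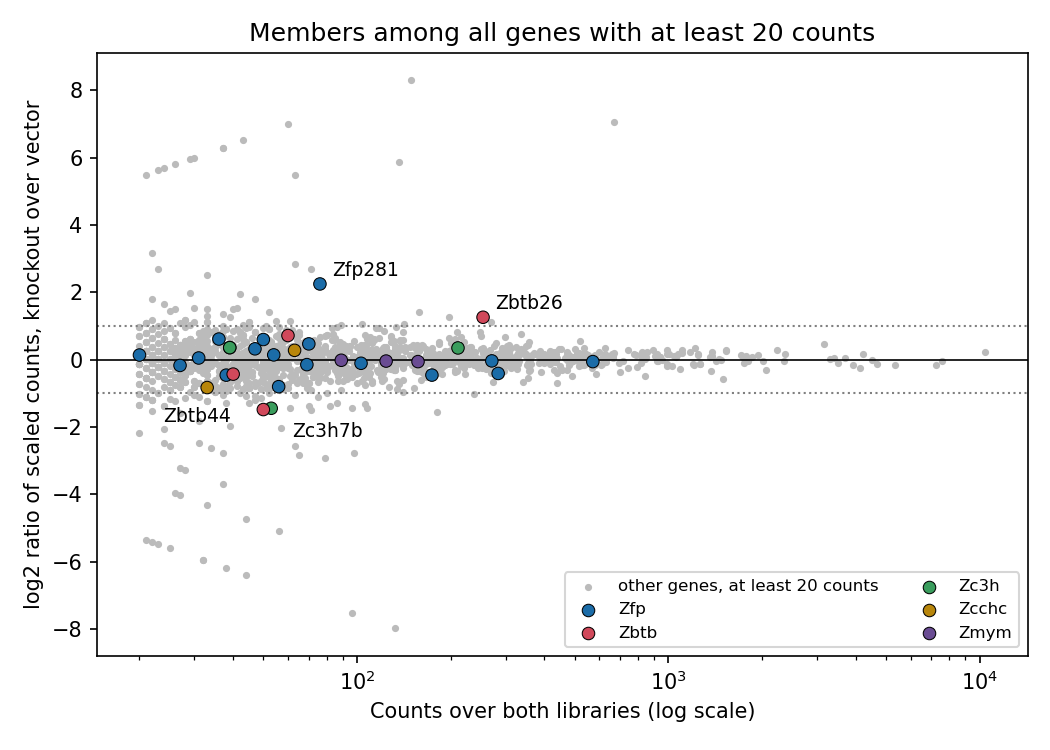
Log2 ratio of TMM-scaled counts, knockout over vector, against the counts over both libraries (log axis) for all 1588 genes with at least 20 counts in grey and the 30 zinc finger genes coloured by prefix. Dotted lines mark 2-fold. The 4 called members are named. Zfp207, the member with the most counts, lies at -0.06 and Zbtb26 at 1.26.

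Of the 5 Zfp genes with at least 100 counts, Zfp207, Zfp706 and Zfp384 had ratios near 1. Zfp207, which encodes the spindle and splicing protein BuGZ, had 306 vector and 266 knockout counts, a ratio of 0.962 (0.813 to 1.14). Its level was also the highest per length, at 191 and 181 FPKM. Zfp706, a small C2H2 gene with a known part in the exit of mouse embryonic stem cells from pluripotency, followed per length at 140 and 134 FPKM, with 144 and 127 counts and a ratio of 0.976 (0.763 to 1.25). Zfp384, a matrix-associated factor, had 56 and 47 counts and a ratio of 0.929 (0.617 to 1.39). For these 3 genes the intervals left out a 2-fold difference in either direction.

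A further 2 abundant members had an interval that excluded equality without reaching 2-fold. Zfp326, a subunit of the DBIRD complex that couples splicing to transcription, had 169 vector and 115 knockout counts, a ratio of 0.753 (0.589 to 0.960). Zfp148, which encodes the GC-box binding factor ZBP-89 and is a close relative of Zfp281, had 105 and 69 counts and a ratio of 0.727 (0.529 to 0.995). With upper quartile scaling the interval of Zfp148 reached 1.003 and no longer excluded equality. The values of these related factors thus lay on opposite sides of equality, Zfp281 with a log2 ratio of 2.25 and Zfp148 with -0.46, and their intervals did not overlap.

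**Figure D3:**
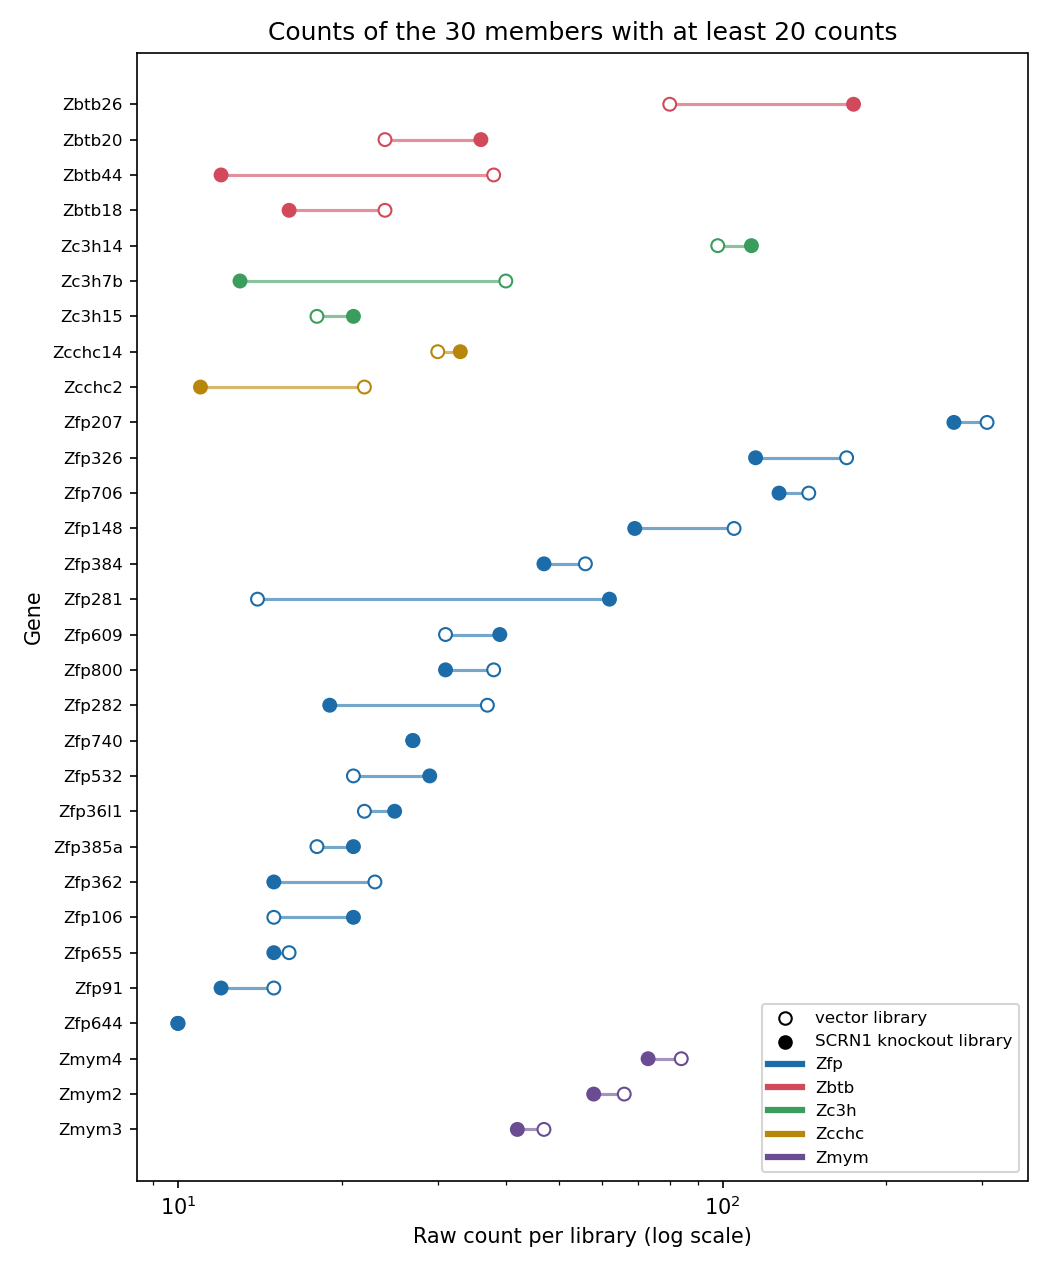
Raw counts of the 30 zinc finger genes with at least 20 counts, on a log axis, with open circles for the vector library, filled circles for the knockout library and colours for the name prefix (1 library per group, no error bars). The widest gap is that of Zfp281 (14 and 62 counts), while the 3 Zmym genes, Zfp207 and Zfp706 show short lines.

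Among the BTB genes, 4 of 15 had at least 20 counts. Of these 4, 1 was called higher and 1 lower in the knockout library. Over all compared genes, 3.34% were called higher and 3.90% lower. With 1 gene in each direction, 4 genes are too few for a share of the group to be set against these. Zbtb20, a repressor of alpha-fetoprotein in mouse liver, had 24 vector and 36 knockout counts, a ratio of 1.66 (0.963 to 2.91). That was the highest ratio among the genes not called. Zbtb18, a repressor needed for brain development in mice, had 24 and 16 counts and a ratio of 0.738 (0.366 to 1.45). Summed over 15 genes the BTB group had 200 and 268 counts and was 1.48-fold higher in the knockout library (1.23 to 1.79). Without Zbtb26 the remaining 14 genes had 120 and 94 counts and a ratio of 0.867 (0.655 to 1.15), so the group's higher sum rested on Zbtb26. The less counted BTB genes included Zbtb1, needed for lymphocyte development in mice, with 8 and 6 counts, and Zbtb43 with 10 and 4.

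The RNA-binding families were counted in 6 Zc3h and 4 Zcchc genes, of which 5 had at least 20 counts. Zc3h14, a nuclear poly(A)-binding protein gene, had 98 vector and 113 knockout counts, a ratio of 1.28 (0.965 to 1.69). Zc3h15, whose product binds the GTPase DRG1 in human cells, had 18 and 21 counts and a ratio of 1.29 (0.655 to 2.57). Both lay above equality and Zc3h7b below it, and the summed Zc3h counts of 178 and 158 gave a ratio of 0.982 (0.788 to 1.22). Zcchc14, whose human product recruits TENT4 poly(A) polymerases to hepatitis B virus RNA, had 30 and 33 counts, a ratio of 1.22 (0.720 to 2.07). Zcchc2 had 22 and 11 counts, a ratio of 0.553 (0.242 to 1.19), the lowest among the genes not called. Zcchc8, a subunit of the nuclear exosome targeting complex, had 6 and 0 counts. Zfp36l1, a CCCH protein that directs decay of AU-rich mRNAs, had 22 and 25 counts, a ratio of 1.26 (0.681 to 2.34).

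The 3 MYM genes were each close to even. Zmym4 had 84 vector and 73 knockout counts, a ratio of 0.962 (0.693 to 1.33). Zmym2, a subunit of LSD1-CoREST complexes, had 66 and 58 counts, a ratio of 0.973 (0.671 to 1.41), and Zmym3 had 47 and 42, a ratio of 0.989 (0.636 to 1.53). Each interval left out a 2-fold difference, and the summed ratio was 0.972 (0.788 to 1.20).

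**Figure D4:**
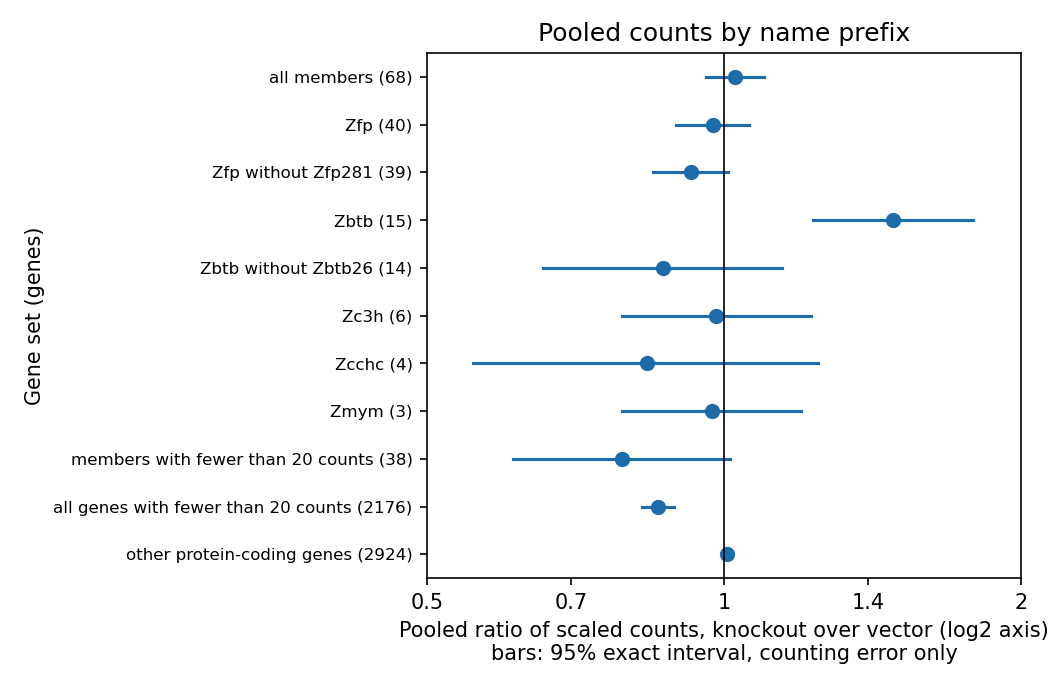
Pooled ratio of TMM-scaled counts, knockout over vector, for each name prefix and for comparison sets, on a log2 axis, with the number of genes in parentheses and bars for 95% exact intervals of counting error. The Zbtb set lies at 1.48, and at 0.867 without Zbtb26, while the Zfp set lies at 0.973, and at 0.925 without Zfp281.

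The KRAB class, marked as such in the deposited KEGG annotation, had 3 members, an annotation looked up after their values were seen. Zfp282 had 37 vector and 19 knockout counts, a ratio of 0.568 (0.309 to 1.01). Zfp398 had 5 and 1 counts and Zfp273 had 1 and 1. Zfp282 and Zfp398 are neighbours on mouse chromosome 6, 3667 bases apart, and both had fewer counts in the knockout library.

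The other members with at least 20 counts were 10 Zfp genes, none of which was called. Their ratios ran from 0.722 (0.350 to 1.44) for Zfp362, with 23 and 15 counts, to 1.55 (0.761 to 3.23) for the RNA-binding gene Zfp106, with 15 and 21. Between them were Zfp609, which encodes a partner of the cohesin loader NIPBL, with 31 and 39 counts, and Zfp91, which encodes a ubiquitin ligase, with 15 and 12. Zfp644, which encodes a partner of the histone methyltransferases G9a and GLP in mouse and human cells, had 10 counts in each library. At 20 counts a ratio had to reach 3.32 before its interval excluded equality, at 50 counts 1.97 and at 100 counts 1.53. Smaller differences were not detectable in the sparsely counted genes.

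The other 38 members had fewer than 20 counts and could not be compared singly. Zfp62, a C2H2 gene of many fingers, had 11 vector and 0 knockout counts. Its exact interval started at 2.27-fold lower. With a filter of 10 counts it was called lower, where 5.43% of 1969 genes were, but it passed that filter through its vector count alone, so the call is no further support. The knockout count was 0 for 7 members, or 10.3% beside 12.7% over the whole table, among them Zfp692 (8 and 0) and Zbtb37 (6 and 0), and for 6 (8.82%, beside 5.84%) the vector count was 0, among them Zbtb33 (0 and 6), which encodes the methyl-CpG reader Kaiso, and Zbtb21 (0 and 5). The 38 genes summed to 153 and 109 counts, a ratio of 0.788 (0.611 to 1.01), beside 0.857 (0.826 to 0.889) for all 2176 genes with fewer than 20 counts. The lower sum was thus seen over the sparsely counted genes in general.

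Genes that work with these families were counted from a list of 77 partners, of which 39 were listed and 29 had at least 20 counts. In the KRAB corepressor group 9 of 21 genes were listed and none was called, with Chd4, the NuRD remodelling ATPase, at 482 vector and 458 knockout counts and Rbbp7, a histone-binding NuRD subunit, at 249 and 228. Of 12 BTB partners 8 were listed, 6 had at least 20 counts and none of those 6 was called. Cul3, the ubiquitin ligase scaffold that BTB proteins bind, had 228 and 161 counts, a ratio of 0.781 (0.635 to 0.960), and the corepressor gene Ncor1 had 159 and 178. Hdac3 had 31 and 55 counts, a ratio of 1.96 (1.24 to 3.16), whose interval excluded equality without the ratio reaching 2. In the RNA factor group 16 of 36 were listed and 11 had at least 20 counts, with the deadenylase scaffolds Cnot1 at 495 and 432 counts and Cnot2 at 293 and 246. Tut4 had 69 and 37 counts, a ratio of 0.593 (0.387 to 0.897), and was not called. Among 10 MYM partners 7 were listed and 4 had at least 20 counts. None of those 4 was called, with Hdac2 at 115 and 99 counts and Rcor3 at 77 and 77. Kdm1a (3 and 10 counts), Gse1 (5 and 4) and Rcor1 (1 and 1) could not be compared singly.

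Of the 29 partners compared, 1 was called, higher (3.45%), where 3.34% of all compared genes were called higher and 3.90% lower. This was Pabpn1, the nuclear poly(A)-binding protein gene, with 8 and 55 counts and a ratio of 7.61 (3.60 to 18.5). It overlaps the listed gene Gm20521, which had 32 vector and 0 knockout counts. Counted together, they had 40 and 55 counts and a ratio of 1.52 (0.994 to 2.35), which includes equality. The sources used here do not give how reads of overlapping genes were assigned.

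The authors' deposited table called 3 of the 68 zinc finger genes at an adjusted p of at most 0.05 (4.41%), beside 2.68% of all 3764 genes. Zfp281 had an adjusted p of 3.14e-05, Zbtb26 of 0.000851 and Zfp62 of 0.0473 in the authors' deposited table. Zc3h7b, at 0.113, and Zbtb44, at 0.120, were not called in the authors' deposited table. An edgeR exact test that assumes a coefficient of variation of 0.1 between cultures gave the authors' deposited unadjusted p-values to within 5.22e-15. That coefficient was assumed and not measured.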

How the data were processed

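The authors deposited whole-number raw counts per gene, 1 column for each library. The deposited FPKM columns, normalised for gene length and library size per the file headers, served here for levels per length. The deposited log2 fold change is vector over knockout, the reverse of the direction used here, and the deposited p-values and adjusted p-values come from a comparison of 1 library with another. Per the submitters' processing notes, bcl2fastq 2.19, HISAT2 2.0.4, StringTie 1.3.0 and GRCh38 were used. Counting tool, mouse build and strand setting: not given in the sources used here.

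Ratios of TMM-scaled counts (edgeR 4.0.16, R 4.3.3) were computed for the whole table with exact conditional binomial (Clopper-Pearson) intervals at 95%. Before log2 was taken, 0.5 was added to every scaled count. Intervals and floors allow for counting error alone, since 1 library per group gives no spread between cultures. PCR copies are not separate molecules, so even the counting error may be larger than these intervals allow. A count of 0, taken as 3 counts, allows 16.7 CPM in the vector and 18.5 CPM in the knockout library. The calling was tested on simulated data. No quasi-likelihood test was run, because there was no spread between replicates to estimate.

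Named genes were the called members, members with 0 counts in 1 library and at least 10 in the other, the most counted of each prefix, called partners and the 2 most counted of each partner group. The other genes given with values were named after these were seen. Members and lists were chosen with earlier results of these data known. The partner Tasor was matched as Fam208a. Other software was matplotlib 3.10.9, pandas 2.3.3, SciPy 1.17.1, NumPy 2.4.6 and Python 3.11.15.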

Additional observations from a re-analysis of the deposited data

How the results depend on the processing

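Under 3 other scalings (median-of-ratios size factors of DESeq2 1.42.0, library totals and upper quartile), Zbtb26 and Zfp281 were called higher and Zc3h7b and Zbtb44 lower each time, and 0 of 31 named genes with a ratio changed their call. The same 4 members were called at 1.5-fold (6.67% of 30 in each direction), beside 5.86% of all genes higher and 5.54% lower. They were also called with the fold alone, beside 4.09% and 5.04%. Both settings only loosen the main rule, so its 4 calls could not be lost, and the result is that no member was added. At 50 counts the 2 higher and the 2 lower genes were each 10.0% of the 20 members, beside 1.86% and 2.26%. The 2 lower genes had 50 and 53 counts, so their share depends on where that cut falls. With median-of-ratios scaling the median log2 ratio of the members moved from -0.03 to -0.17 (all genes -0.12) and the pooled ratio to 0.927. With no count filter 4 members were called higher and 6 lower of 68, beside 3.40% and 4.44% of all genes, and the calls added were of members with at most 11 counts. Called partners numbered 1 of 29, beside 3.34% of all genes higher and 3.90% lower. They became 2 of 39 with no filter, beside the 3.40% and 4.44% above, and 3 of 29 at 1.5-fold, beside 5.86% and 5.54%. The cause was not tested. No paired analysis was possible because each group had 1 library, and no library could be left out.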

Other observations

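C2H2 transcription factors outside the name rule gave a comparison set of 80 genes, of which 36 were listed and 19 had at least 20 counts. None was called higher, beside 3.34% of all compared genes. Mecom and Klf5, 2 of 19 (10.5%), were called lower in the knockout library, beside 3.90%. The median log2 ratio of the 19 was -0.31, and 5 of them lay above 0. The 36 genes together had a pooled ratio of 0.911 (0.854 to 0.972). Mecom and Klf5 are part of that pooled ratio, and it was not computed without them. Mecom, a factor of blood stem cells, had 58 vector and 7 knockout counts, 7.49-fold lower (3.41 to 19.4). Klf5, an epithelial factor, had 21 vector counts and 0 in the knockout library. Its exact interval started at 4.71-fold lower. But Klf5 passed the count filter through the vector library alone, so its call, and the 10.5% that includes it, are descriptions. Whether this set differed from the members was not tested.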
